A study of Oryza sativa with 2 samples.

Results

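The genes described here are rice gene models that lie next to each other on a chromosome and differed in the same direction between a salinity library and a control library. Rows of the deposited count table were kept when both libraries had a count above 0 and the sum was at least 50, which left 22551 of 55986 gene models. Members are the genes in runs of 4 or more neighbouring kept rows whose log2 ratio (salinity over control, in counts per 1e6 library counts, CPM, with 0.5 added to each count) was at least 1.5 throughout or at most -1.5 throughout. A pair of runs that lie between 5.3 and 5.5 Mb of chromosome 4 and between 21.7 and 21.9 Mb of chromosome 2 was left out. This gave 47 genes in 11 runs on 8 chromosomes, with 15 genes in 3 runs higher and 32 genes in 8 runs lower under salinity. Over all kept rows, 5.85% had a ratio at or above the higher threshold and 12.1% at or below the lower one. The ratios chose the members, so they are given as a description and no test is made of them.

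The salinity group was 1 library from whole seedlings of the rice cultivar CARI Dhan 7 that were germinated and raised for 14 days in a solution of mixed sodium, calcium and magnesium salts with an electrical conductivity of 6 dS/m. The control group was 1 library from seedlings of the same cultivar and age raised in distilled water, given here as 0 dS/m. Neither group had a replicate, so every difference compares these 2 libraries, has no replicate check and carries no p-value. In whole seedlings, fewer cells of a type and less RNA per cell cannot be told apart.

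The salinity library held 15031328 counts and the control library 45359020. Every salinity count above 0 was even, against 61.73% of those in the control. A read pair was taken as 4 salinity counts or 2 control counts, and the intervals are on this scale. It is inferred from the values and approximate: 70.56% of salinity counts above 0 are multiples of 4, and 11654 control counts are odd, so other salinity counts and the odd control counts are not whole pairs on it. The intervals cover counting error and nothing else. On this scale a floor of 3 pairs is 12 salinity counts or 6 control counts. Of the leaf markers, the chlorophyll-binding protein genes CAB1R and CAB2R summed to 18420 CPM in the salinity and 16764 CPM in the control library and were abundant in both. The 5 root markers summed to 693.4 CPM in the salinity and 1237 CPM in the control library, but they went in both directions. NAS1, NAS2 and Lsi2 had log2 ratios of -3.44, -2.32 and -0.89, whereas Lsi1 was at 0.23 and NRT2.1 at 1.73. Lsi1 alone had 460.3 CPM in the salinity and 392.7 CPM in the control library. The 4 grain markers summed to 9.45 CPM in the salinity and 1558 CPM in the control library. Most of the grain sum was the alpha-amylase gene AMY1A, with 0 salinity counts and 68861 control counts. The part of these marker differences in the runs was not tested.

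Plant genomes hold many genes in tandem arrays that arose by duplication, and genes for some biosynthetic pathways sit together in clusters. RAB16 genes encode dehydrins, hydrophilic proteins of the late embryogenesis abundant group that accumulate in drying seeds and in vegetative tissue under water deficit or abscisic acid. Lipoxygenases add oxygen to polyunsaturated fatty acids, a first step towards jasmonates and other oxylipins, and beta-glucosidases release glucose from glucosides. The count table pairs no model with a name. Names could be checked in a RefSeq gene table for 9 of the 47 members, and the other 38 are given by locus identifier with no function.

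The 3 higher runs hold 4 RAB16 genes on chromosome 11, 4 unnamed models on chromosome 3 and 7 unnamed models on chromosome 4. For each of their 15 genes the whole 95% counting interval of the ratio lay above 2-fold. It did so for 87.8% of all kept rows at or above the higher threshold and 6.32% of all kept rows. Since the ratio chose these genes, nothing is read from that count. The 15 genes had a median level of 19.0 CPM per kb of exon in the salinity library and 1.21 CPM per kb in the control library.

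The RAB16 run spans 23.7 kb of chromosome 11, from 15320188 to 15343857 in the coordinates of the deposited table (genome build not given in the sources used here). All 4 genes lie on the minus strand, each has 2 exon blocks, and the gaps between neighbours are 5400 to 7376 bases. RAB16A (LOC_Os11g26790) had 72898 counts in the salinity and 5554 in the control library, or 4018 and 101.5 CPM per kb, a 39.6-fold difference with a log2 ratio of 5.31 (interval 5.25 to 5.37). RAB16B (LOC_Os11g26780) had 7946 salinity and 778 control counts, or 510.8 and 16.6 CPM per kb, and a log2 ratio of 4.94 (interval 4.79 to 5.11). These genes at one end of the run had the larger ratios. RAB16C (LOC_Os11g26760) had 2656 salinity and 1140 control counts, with a log2 ratio of 2.81 (interval 2.65 to 2.98). RAB16D (LOC_Os11g26750) had 3208 salinity and 1707 control counts, with a log2 ratio of 2.50 (interval 2.36 to 2.64). The counting intervals of RAB16A and RAB16B lay above those of RAB16C and RAB16D without overlap.

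The order of the RAB16 levels per length also differed between the libraries. Under salinity the order was RAB16A, RAB16B, RAB16D and RAB16C, the last pair at 224.2 and 222.3 CPM per kb. In the control it was RAB16A, RAB16D at 39.5, RAB16C at 31.6 and RAB16B at 16.6 CPM per kb, so RAB16B was the lowest there. Together the 4 genes took 0.577% of all salinity counts and 0.0202% of all control counts. The model between RAB16C and RAB16B, LOC_Os11g26770, had 2 salinity counts and 0 control counts and was not kept. RAB16 genes are close copies, so how reads were divided among them is uncertain. The kept rows on either side, LOC_Os11g26594 at -1.33 and LOC_Os11g26850 at -1.26, had log2 ratios below 0, and the row next beyond the first, LOC_Os11g26570, was at 3.72.

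The chromosome 3 higher run spans 13.0 kb from 27779086 to 27792047, with no other model inside it. Its 4 models are all on the minus strand, each is 1 exon block of 690 to 1071 bases, and the gaps are 2063 to 3795 bases. LOC_Os03g48780 had by far the highest level of the 4, with 1474 salinity counts and 299 control counts, or 91.6 and 6.17 CPM per kb, and a log2 ratio of 3.89 (interval 3.62 to 4.18). LOC_Os03g48750 had the largest ratio, at 6.12 on the log2 scale (interval 4.99 to 7.67), with 288 salinity and 12 control counts. The models between them were low in both libraries. LOC_Os03g48760 had 82 salinity and 16 control counts, with a log2 ratio of 3.92 (interval 2.71 to 5.34). LOC_Os03g48770 had 52 salinity and 33 control counts, with a log2 ratio of 2.24 (interval 1.08 to 3.39). The run together had 126.3 CPM under salinity and 7.98 CPM in the control, 15.8-fold higher. It was lost when at least 200 counts per model were required, because 2 of its models fall under that sum.

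The chromosome 4 higher run was the longest, with 7 kept models between 7128690 and 7251846. It spans 123.2 kb, but 6 of the 7 models lie close together and the last, LOC_Os04g13140, follows a gap of 83951 bases. That gap holds 15 models that were not kept, 10 of them with no count in either library. Of these, LOC_Os04g13090 had 0 salinity counts and 268 control counts, so a model that was lower under salinity lies inside this run. When rows with 0 in 1 library were kept, that model ended the run after LOC_Os04g12980.

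Within this run the ratios were largest at its centre. LOC_Os04g12960 had 652 salinity and 16 control counts, or 25.9 and 0.217 CPM per kb, a 119.3-fold difference with a log2 ratio of 6.90 (interval 5.93 to 8.18). That was the largest ratio of all 47 members. Its neighbour LOC_Os04g12970 had 116 salinity and 10 control counts, with a log2 ratio of 5.07 (interval 3.74 to 6.86). LOC_Os04g12980 had 360 salinity counts and 243 control counts, the most of the run in the control, and was at 2.16 (interval 1.75 to 2.57). The counting intervals of LOC_Os04g12970 and LOC_Os04g12980, next to each other, did not overlap. LOC_Os04g12920 had 100 salinity and 20 control counts on only 165 exon bases, which put it at 40.5 CPM per kb under salinity and 2.74 in the control, the highest level per length of the run under salinity. LOC_Os04g12900, LOC_Os04g12950 and LOC_Os04g13140 had log2 ratios of 3.25, 2.09 and 2.74.

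**Figure D1:**
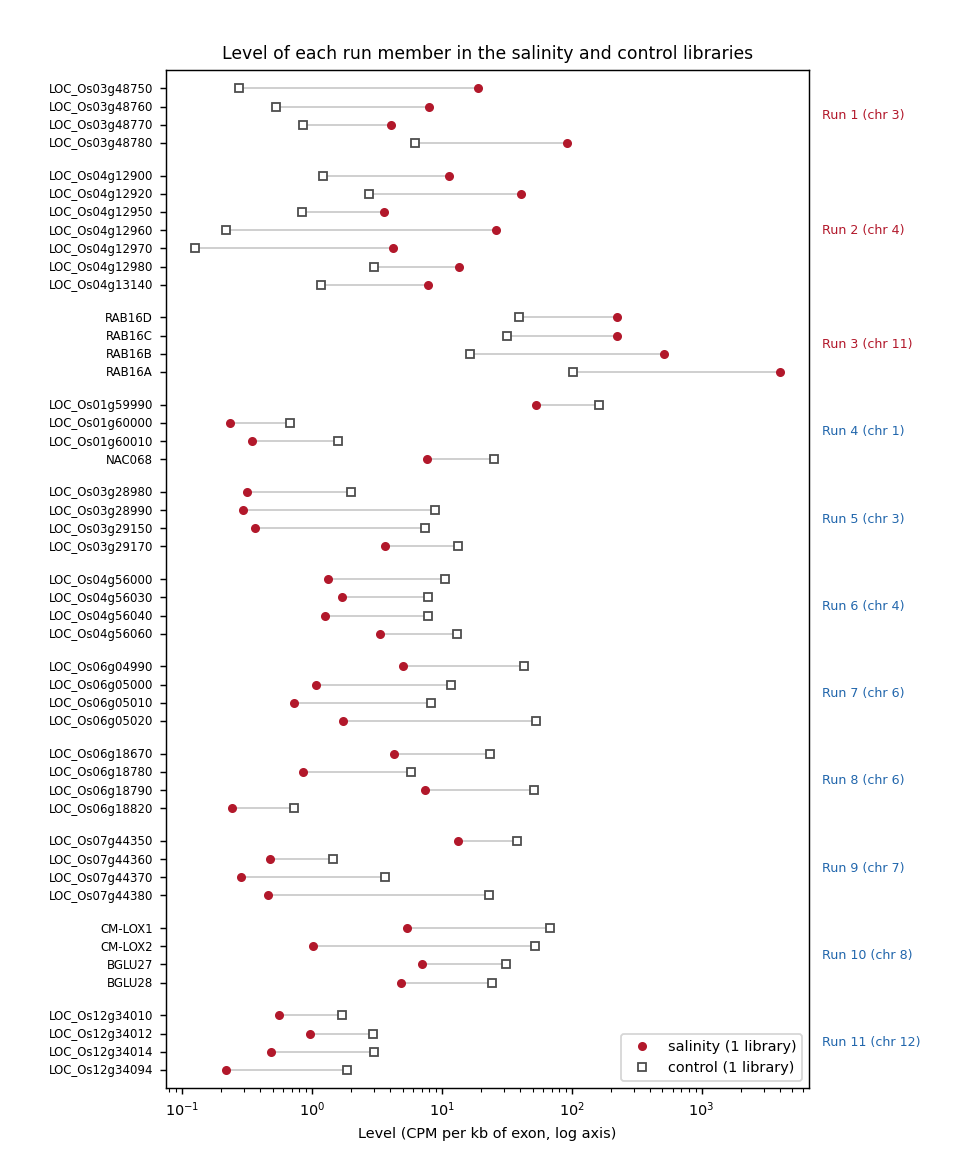
Level of each of the 47 run members in CPM per kb of exon (log axis), with a filled circle for the salinity library and an open square for the control library, 1 library each. Runs 1 to 3 are higher and runs 4 to 11 lower under salinity. RAB16A reaches 4018 CPM per kb under salinity, above every other member.

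The 8 lower runs held 4 genes each and rested on fewer salinity counts. Of their 32 genes, 16 had no more than 12 salinity counts, the floor of 3 read pairs, and so did 31.5% of all kept rows at or below the lower threshold. For 23 of the 32 genes the whole counting interval lay beyond 2-fold lower. It did so for 59.0% of all kept rows at or below the lower threshold and 8.58% of all kept rows. The ratio chose these genes too, so nothing is read from that count. The median level was 1.04 CPM per kb in the salinity library and 9.71 CPM per kb in the control library. The number of lower runs depended on the scaling. The median log2 ratio of all kept rows was -0.32 with column totals, and with TMM factors, which raise every log2 ratio by 0.30, 4 of the 8 lower runs with 16 genes were left, whereas all 3 higher runs were whole and 2 more, with 8 genes, were found. DESeq2 size factors, which raise the ratios by 0.33, gave the same numbers.

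The lower run with the most counts was on chromosome 8, between 25216363 and 25266935, and held 2 lipoxygenase genes followed by 2 beta-glucosidase genes. It had no other model inside its 50.6 kb. CM-LOX1 (LOC_Os08g39840) had 262 salinity counts and 9975 control counts, or 5.37 and 67.6 CPM per kb, a 12.6-fold difference with a log2 ratio of -3.65 (interval -4.03 to -3.31). CM-LOX2 (LOC_Os08g39850) had 56 salinity and 8747 control counts, or 1.01 and 51.8 CPM per kb, a 51.3-fold difference with a log2 ratio of -5.68 (interval -6.57 to -4.95). Both lipoxygenase genes were among the better covered members in the control and close to each other in level there. The interval of CM-LOX2 lay below that of CM-LOX1 without overlap.

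The beta-glucosidase genes of this run had smaller differences. BGLU27 (LOC_Os08g39860) had 232 salinity and 3146 control counts, with a log2 ratio of -2.17 (interval -2.57 to -1.79). BGLU28 (LOC_Os08g39870) had 134 salinity and 2036 control counts, with a log2 ratio of -2.33 (interval -2.87 to -1.84). Their intervals overlapped each other and lay above those of both lipoxygenase genes. CM-LOX2 and BGLU27 run towards each other on opposite strands with 34 bases between them, and the use of strand in counting is not stated, so reads past the end of either cannot be told apart from reads of the other. The run took 0.00455% of salinity counts and 0.0527% of control counts, 11.5-fold lower in summed CPM. The kept rows beside it were LOC_Os08g39830 at -0.94 on 12 salinity and 72 control counts, and LOC_Os08g39880 at 0.70.

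A run on chromosome 6, from 2199242 to 2213563, was the other lower run whose 4 genes all stayed below a log2 ratio of -2. Its models lie on the minus strand, have 2 or 3 exon blocks and 776 to 1006 exon bases, and no other model lies among them. LOC_Os06g05020 had 20 salinity counts and 1906 control counts, or 1.73 and 53.3 CPM per kb, with a log2 ratio of -4.95 (interval -6.61 to -3.75). LOC_Os06g04990 at the other end had 76 salinity and 1946 control counts, with a log2 ratio of -3.08 (interval -3.82 to -2.43). The end genes thus had nearly equal control counts but different ratios, with intervals that overlapped. LOC_Os06g05000 had 12 salinity and 414 control counts, and LOC_Os06g05010 had 8 and 289, so their log2 ratios of -3.46 and -3.50 rest on salinity counts at or under the floor. The kept rows on either side were above 0, at 0.34 and 0.53.

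On chromosome 3, a lower run between 16449347 and 16577834 had the largest span, 128.5 kb, with 4 plus-strand genes and 13 models between them that had no count in either library. LOC_Os03g28990 had 8 salinity and 772 control counts, with a log2 ratio of -4.91 (interval -8.05 to -3.14). LOC_Os03g29150 had 8 salinity and 515 control counts, with a log2 ratio of -4.33 (interval -7.47 to -2.55). LOC_Os03g28980 had 12 salinity and 238 control counts and a log2 ratio of -2.66. These 3 rest on salinity counts at or under the floor. LOC_Os03g29170 at the run's end was better covered, with 128 salinity and 1405 control counts, and was at -1.86 (interval -2.42 to -1.35). The gap between LOC_Os03g28990 and LOC_Os03g29150 is 91903 bases, so the run consists of 2 close pairs far apart.

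A run on chromosome 4 between 33351839 and 33391644 was the fourth lower run left with TMM factors. LOC_Os04g56060 had the most counts in it, 84 under salinity and 984 in the control, with a log2 ratio of -1.95 (interval -2.66 to -1.33). LOC_Os04g56000, LOC_Os04g56030 and LOC_Os04g56040 had 12, 20 and 12 salinity counts and 299, 286 and 236 control counts. Their control counts were alike, and their log2 ratios were -2.99, -2.21 and -2.65. When the required sum was lowered to 10 counts this run was lost, because LOC_Os04g56050 inside it, with 8 salinity and 20 control counts, then entered with a log2 ratio of 0.32.

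The other 4 lower runs each had a member near the threshold and were not runs on TMM scaling. The chromosome 1 run, from 34682518 to 34694391, was the most compact of all 11 at 11.9 kb, with gaps of 123 to 1312 bases and neighbours on alternating strands. It holds NAC068 (LOC_Os01g60020), a transcription factor gene of the NAC family, with 156 salinity and 1566 control counts and a log2 ratio of -1.73 (interval -2.24 to -1.27). LOC_Os01g59990 had 864 salinity and 7929 control counts and was at -1.60 (interval -1.81 to -1.41). These end genes carried nearly all of the run's counts. LOC_Os01g60000 had 12 salinity and 109 control counts and was at -1.54 (interval -3.91 to 0.03), which includes no difference. LOC_Os01g60010 had 8 salinity and 119 control counts and a log2 ratio of -2.22. LOC_Os01g60000 lies 215 bases from LOC_Os01g59990 and LOC_Os01g60010 lies 1312 bases from NAC068, and whether reads of the neighbours were counted to them was not tested.

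The second chromosome 6 run, from 10588145 to 10690032, held 3 genes of similar ratio and 1 near the threshold. LOC_Os06g18670 had 116 salinity and 1916 control counts, LOC_Os06g18780 had 88 and 1834, and LOC_Os06g18790 had 108 and 2247. Their log2 ratios of -2.45, -2.78 and -2.78 had intervals that all lay beyond 2-fold lower. LOC_Os06g18820, with 12 salinity and 113 control counts, was at -1.59 (interval -3.96 to -0.02). LOC_Os06g18780 and LOC_Os06g18790 are 609 bases apart on the same strand. A gap of 59600 bases with 8 models without any count separates LOC_Os06g18670 from the rest.

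In the chromosome 7 run, from 26501465 to 26520690, the log2 ratio ranged over 4.15 units, the widest among the lower runs. LOC_Os07g44380 had 4 salinity and 690 control counts and a log2 ratio of -5.67 (interval -11.1 to -3.35). LOC_Os07g44370 had 4 salinity and 175 control counts and was at -3.69 (interval -9.18 to -1.34). Both had a salinity count of 1 read pair on the inferred scale. LOC_Os07g44350, with 242 salinity and 2101 control counts, was at -1.52, the member nearest to the lower threshold, and LOC_Os07g44360, with 16 and 152 counts, at -1.61 (interval -3.57 to -0.24). The kept row before the run, LOC_Os07g44330, was higher under salinity, with 4142 salinity and 1532 control counts, at 3.03 (interval 2.89 to 3.16).

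The chromosome 12 run, from 20531998 to 20624090, was the weakest. None of its 4 genes had an interval wholly beyond 2-fold lower, all had 4 to 10 salinity counts and 78 to 116 control counts, and the run summed to 1.86 CPM under salinity and 8.29 CPM in the control. LOC_Os12g34010 and LOC_Os12g34012 overlap by 1 exon base and had 8 and 10 salinity counts and 78 and 96 control counts. Their log2 ratios were both -1.61, with intervals of -4.79 to 0.26 and -4.30 to 0.09, which include no difference. With only 1 model of those that share exon bases the run was lost. LOC_Os12g34014 and LOC_Os12g34094 were at -2.64 and -3.10 with 4 salinity counts each, and are separated by 83361 bases that hold 13 models left out by the count filter.

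**Figure D2:**
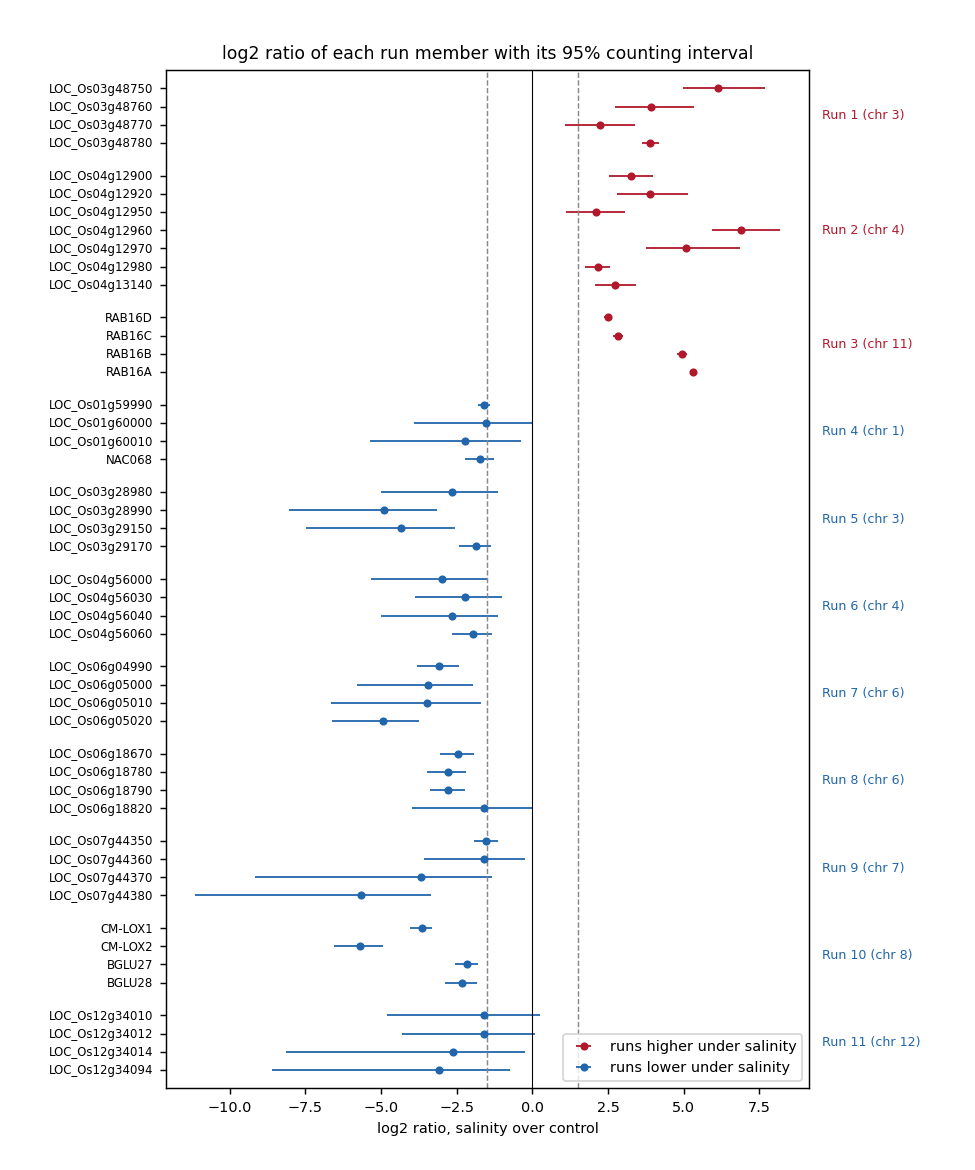
log2 ratio (salinity over control) of the 47 members with the 95% counting interval on the inferred read-pair scale, grouped by run, with dashed lines at -1.5 and 1.5. The intervals of all 15 members of the higher runs lie above 1, while those of 9 of the 32 members of the lower runs reach past -1.

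By the rule, the first kept row on each side of a run lies outside the threshold, and its values are given as a description. Beside the 3 higher runs these rows had a median log2 ratio of -0.77, and 1 of these 6 rows was above 0. Beside the 8 lower runs they had a median of -0.62, and 10 of these 16 were below 0, beside a median of -0.32 over all kept rows. Rows past either threshold lay within 5 kept rows of the chromosome 4 higher run. Past the higher one were LOC_Os04g12530 at 2.71 on one side and LOC_Os04g13364 at 3.57 on the other. Past the lower one were LOC_Os04g12580 at -2.51 and, directly next to the run, LOC_Os04g13190 at -2.68, both on few salinity counts. Such rows near the other runs are not all listed. The members just inside the higher threshold were LOC_Os04g12950 at 2.09, LOC_Os04g12980 at 2.16 and LOC_Os03g48770 at 2.24, and the flanking rows just outside it were LOC_Os03g48710 at 0.61, LOC_Os04g12600 at -0.22 and LOC_Os03g48810 at -0.29. At the lower threshold the members just inside were LOC_Os07g44350 at -1.52, LOC_Os01g60000 at -1.54 and LOC_Os06g18820 at -1.59. The flanking rows just outside it were LOC_Os01g59980 at -0.97, LOC_Os08g39830 at -0.94 and LOC_Os04g55970 at -0.87.

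**Figure D3:**
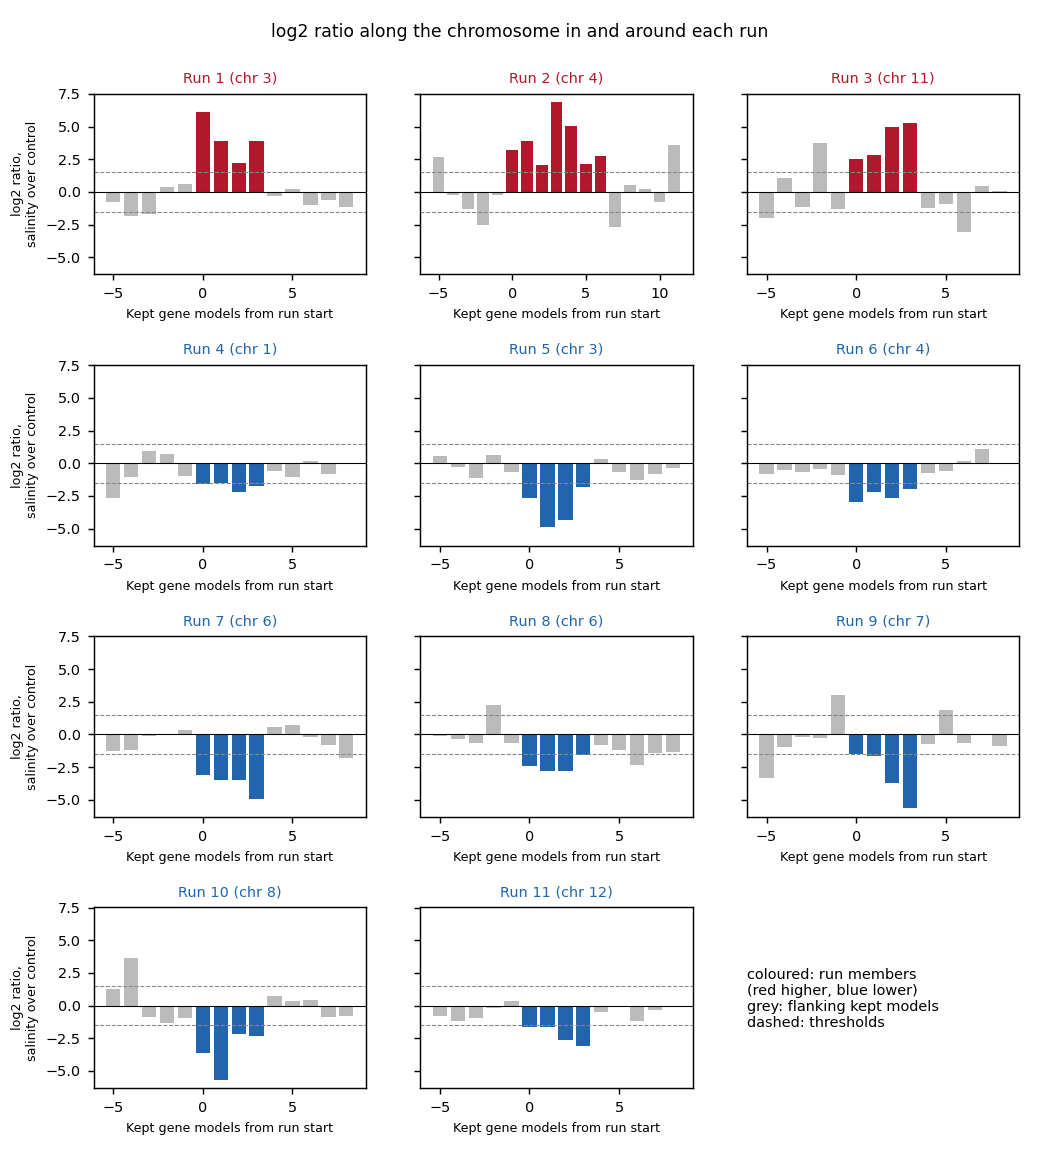
log2 ratio (salinity over control) of the run members, coloured, and of the 5 kept gene models on each side, grey, in chromosome order, with dashed lines at -1.5 and 1.5. In the chromosome 7 run the flanking model before the run stands at 3.03, opposite in sign to the members.

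Some features of layout that the ratio rule did not use were more common among neighbouring members than among other neighbouring kept rows. Of 36 neighbouring pairs within the runs, 25 (69.4%) lay on the same strand, against 52.3% of all other neighbouring kept rows. No other model lay between 28 of the 36 pairs (77.8%, against 59.5%). The numbers of exon blocks were equal in 14 of the 36 pairs (38.9%, against 12.8%), and the shorter exon length was at least 75% of the longer in 19 (52.8%, against 33.3%). Runs differed in this: every pair of the RAB16 run and the chromosome 3 higher run had equal numbers of blocks. No pair did in the chromosome 1 run or the lipoxygenase and beta-glucosidase run. Models of a single exon block were also more common among members than the 17.1% over all kept rows. In higher runs they made up 26.7% of members, near the 25.6% of all kept rows at or above the higher threshold. In lower runs they made up 34.4%, against 20.2% of all kept rows at or below the lower threshold. The part of single-block models in the equal numbers was not tested. The median gap of 4383 bases was near that of the other pairs, 4778 bases, but 4 of the 36 gaps were over 50 kb (11.1%, against 4.64%). These shares come from few pairs that lie in 11 runs, and they are given without a test.

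In the higher runs, 10 of 12 pairs were on the same strand, 8 of 12 had the same number of exon blocks and 9 of 12 had similar exon lengths. In the lower runs these numbers were 15, 6 and 10 of 24 pairs. Each of these shares was above that of the other neighbouring kept rows, and the difference between higher and lower runs was not tested. Of the 11 runs, 5 lay wholly on 1 strand, namely both runs of chromosome 3 and those on chromosomes 11 and 12 and at 2199242 on chromosome 6. In 5 runs no model was left out by the count filter. In the other 6, a total of 55 models inside the spans were left out, 39 of them without a count in either library. Median exon length was 1035 bases for the members of higher runs and 1366 bases for those of lower runs, against 1770 bases over all kept rows. All kept rows past a threshold were also shorter than that, at 1627 bases for the higher and 1548.5 bases for the lower threshold.

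Ratios within a run were often unlike. The range of log2 ratios within a run was 0.68 in the chromosome 1 run and 4.81 in the chromosome 4 higher run, the smallest and the largest of the 11. Most rows past a threshold had no such neighbour. As single rows, 1047 were higher and 1956 lower. In pairs there were 109 higher and 291 lower groups, and in threes 13 higher and 52 lower groups.

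**Figure D4:**
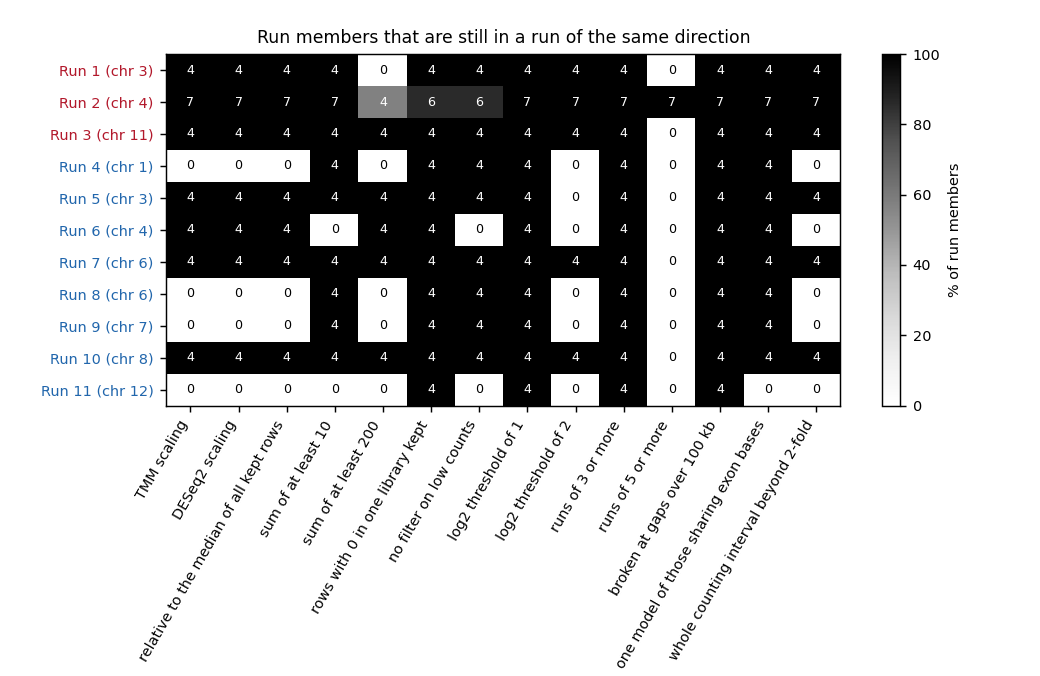
Number of members of each run (rows) that still lie in a run of the same direction under each of 14 alternative settings (columns), shaded by their share of the run's members. The RAB16 run (run 3), the chromosome 6 run at 2199242 (run 7) and the lipoxygenase and beta-glucosidase run (run 10) are whole in 13 of 14 settings, and the chromosome 12 run (run 11) in 4. The lower ratio threshold, the shorter minimum run and the break at long gaps could not split a run. Beyond those settings, the chromosome 12 run was whole only when rows at 0 in either library were kept. The longer minimum run had to remove every run of 4 genes. TMM, DESeq2 and median scaling gave the same result for each run, so the 14 settings are not separate checks.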

How the data were processed

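The authors deposited 1 table of whole-number read counts per gene model with exon positions, strand and exon length in bases. Per the submitters' processing notes, FastQC, MultiQC, STAR, featureCounts and DESeq2 were used. No version, build, annotation or counting option was stated there. From these counts, rows were sorted by chromosome and lowest start, and runs were found as described above, with column totals of all rows as library sizes. The 95% interval is an exact conditional binomial (Clopper-Pearson) one, from the share of each gene's read pairs that is in the salinity library. Reads without molecular identifiers may repeat a molecule, so it is too narrow for the RNA itself.

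Names came from hand-written pairs of name and locus. A pair was used when the RefSeq table (assembly ASM3414082v1) had the name on the same chromosome, with a span within 25% and a start within 5 Mb. Of 73 pairs, 36 passed. RAB16A is listed there under its synonym. The pairs for CM-LOX1, CM-LOX2, BGLU27, BGLU28 and NAC068 were added after the members were known.

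The members and lists were chosen with earlier results of these data known. The planned rule named members of runs of 5 or more genes, of the 5 runs per direction with the largest median ratio, of runs with a checked name, and the members and flanking rows nearest to a threshold. It was widened to all members, other flanking rows and models left out inside a run after their values were seen. Run finding was tested on simulated data. Scaling factors came from edgeR 4.0.16 and DESeq2 1.42.0 in R 4.3.3, and the rest was done with Python 3.11.15, scipy 1.17.1, pandas 2.3.3, numpy 2.4.6 and matplotlib 3.10.9. Alternatives covered scaling, count filters, thresholds, run length, gaps, shared exons and intervals. No genome sequence was used.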

Additional observations from a re-analysis of the deposited data

How the results depend on the processing

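The 14 alternatives were planned. The reported 3 higher and 8 lower runs, with 15 and 32 genes, became 5 and 4 runs with 23 and 16 genes under TMM scaling, DESeq2 scaling and ratios relative to the median of all kept rows. A log2 threshold of 1 gave 7 and 73 runs with 31 and 329 genes, and a threshold of 2 left 2 lower runs with 8 genes. Runs of 3 or more gave 16 and 60 runs with 54 and 188 genes, and runs of 5 or more 1 and 0 runs with 7 and 0 genes. A sum of at least 10 gave 7 higher runs with 35 genes, and a sum of at least 200 left 8 genes in higher runs. With rows at 0 in 1 library kept there were 17 lower runs with 72 genes, and with no filter on low counts 20 and 75 runs with 98 and 339 genes. Whole counting intervals beyond 2-fold gave 4 lower runs with 16 genes, of which 12 were reported members. Other counts stayed within 1.5 times, but not always with the same genes. A sum of at least 10 gave 32 genes in lower runs, of which 24 were reported members. A sum of at least 200 gave 24 genes in lower runs, of which 16 were reported members. Of the 47 members, 8 fell inside the threshold with TMM and 8 with DESeq2 scaling, 4 with a prior count of 2 and 0 with the smaller prior count. No paired analysis was possible because each group had 1 library. The cause of the changes was not tested beyond their construction. Of the 32 members of lower runs, 16 had at most 12 salinity counts.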

Other observations

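The hand-written lists held further tandem families. No name could be checked for 11 germin-like protein, 5 Bowman-Birk inhibitor, 4 phenylalanine ammonia-lyase and 4 Rubisco small-subunit genes, so these are not reported. None of the genes below lies in a run. Of the JAZ repressor genes, which restrain jasmonate signalling, JAZ9, JAZ11 and JAZ10 follow each other on chromosome 3. Their log2 ratios (salinity over control) were -2.03 (interval -2.36 to -1.73), -0.02 (interval -0.22 to 0.17) and -0.96 (interval -1.05 to -0.87), with JAZ9 at 356 salinity and 4398 control counts. JAZ13 and JAZ12 on chromosome 10 were at -1.99 and -0.88. Of the cold-related factor genes on chromosome 9, DREB1B was at -0.45, DREB1H at 0.46 and DREB1A at -0.84, none past a threshold.

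Small heat shock protein genes went in opposite directions. On chromosome 1, HSP16.9C had 180 salinity and 230 control counts and a log2 ratio of 1.24 (interval 0.71 to 1.75), whereas HSP16.9A had 242 salinity and 4721 control counts and a log2 ratio of -2.69 (interval -3.09 to -2.32). HSP16.9B, with 88 salinity and 398 control counts, was at -0.58. HSP17.7 on chromosome 3 was at 4.83 (interval 4.39 to 5.31). The neighbouring nitrate transporter genes NRT2.1 and NRT2.2 were alike at 1.73 and 1.24, with overlapping intervals.

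Of the alpha-amylase genes on chromosome 8, AMY3E was at -4.46 and AMY3D at -0.98. AMY1A, on chromosome 2, had 0 salinity counts and 68861 control counts. The pathogenesis-related gene PBZ1 was at -4.08 and the glutathione transferase gene GSTU6 at -0.36.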
